A study of Mus musculus with 12 samples.

Results

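In the ApoE-null cohort of bone marrow-derived macrophages (BMDMs), 277 regions of open chromatin were called in all 4 Baf60a KO libraries and in none of the 4 WT libraries. They were found by merging the autosomal ATAC-seq peaks of all 12 libraries wherever they overlapped by at least 1 bp, which gave 144562 regions, and are called KO-only regions below. They are 0.489% of the 56646 regions called in at least 1 library of the cohort. With the genotype labels exchanged, 4 regions (0.00706%) had a call in each WT library and 0 of 4 KO libraries. In lists cut to equal length the counts were 116 KO-only and 49 exchanged, and leaving out 1 library moved the KO-only count to between 335 and 887. The regions were chosen by these calls, so the counts are a description and were not tested. The name refers to calls in this cohort alone: 266 of the 277 regions were also called in all 4 libraries, KO and WT, of a second cohort.

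ATAC-seq marks open DNA with a transposase that cuts and tags it. Baf60a, the product of the Smarcd1 gene, belongs to SWI/SNF, a complex that moves and evicts nucleosomes with energy from ATP and so sets which enhancers and promoters transcription factors can reach. In macrophages, enhancers far from genes carry much of the cell type's identity and of its response to stimuli, whereas promoters of widely used genes tend to be open in most cell types. The KO cells of the ApoE-null cohort came from mice with a floxed Baf60a and Lyz2-Cre, which deletes in myeloid cells, and the WT cells from floxed mice without Cre. All of these mice lacked ApoE, so the WT cells are ApoE-null too. Cells of each genotype were kept untreated or exposed for 48 h to 50 µg/ml of oxidised LDL (oxLDL), a lipoprotein that macrophages take up through scavenger receptors until they turn into foam cells. Each of the 4 groups has 2 libraries, made from cryopreserved cells with a Nextera kit. The second cohort holds 1 library in each of the same 4 combinations, labelled KO or WT, made with the Omni-ATAC protocol. Its labels give no ApoE status and no allele. The age of the mice and whether replicates came from separate animals are not given, and in bulk chromatin fewer cells with an open site cannot be told apart from less opening per cell.

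The lists differed in length, which moves what is called. KO lists of the ApoE-null cohort held 33267 to 44524 peaks and WT lists 24397 to 39303. Omni-ATAC lists held 93867 and 138132 autosomal peaks in KO and 80394 and 106477 in WT. The files hold no reads, so depth is unknown. A region over the start of Smarcd1 (mm10, chromosome 15, 99701894 to 99702982) had a peak in every ApoE-null library, 4 KO and 4 WT, and since the labels do not name the deleted exons it does not check the genotype. The labelled cell type was checked at promoters, taken as the window of 250 bases before to 50 after each gene start. Of 14 macrophage identity genes with such a window, a mean of 80.4% had a peak there in KO and 71.4% in WT libraries, against 0% of 4 B cell and 11.1% of 9 T and NK cell marker genes in either genotype. The shares were 20% in KO and 17.5% in WT for 10 neutrophil, 17.9% in KO and 14.3% in WT for 7 dendritic cell, 7.14% in KO and 3.57% in WT for 7 mast cell and basophil, and 20% in both for 5 erythroid and megakaryocyte genes. Over all 16457 genes with a window the means were 49.4% in KO and 47.4% in WT.

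Promoters made up a small part of the KO-only regions, and 3 of them are printed here to show how unlike each other they are. Of the 277 regions, 18 overlapped 21 of the 31365 promoter windows of RefSeq (build GRCm38.p6, the assembly of mm10), a table that does not cover every gene. The windows shown are the 3 of protein-coding genes whose regions ranked highest in the KO lists. They belong to Gsta3, a glutathione S-transferase gene (chr1:21240335-21240634, plus strand), Tlr11, a Toll-like receptor gene for microbial profilin and flagellin (chr14:50357664-50357963, plus strand), and Mboat2, a lysophospholipid acyltransferase gene (chr12:24831349-24831648, plus strand). Capitals mark every match, on either strand, to the letters searched.
Gsta3: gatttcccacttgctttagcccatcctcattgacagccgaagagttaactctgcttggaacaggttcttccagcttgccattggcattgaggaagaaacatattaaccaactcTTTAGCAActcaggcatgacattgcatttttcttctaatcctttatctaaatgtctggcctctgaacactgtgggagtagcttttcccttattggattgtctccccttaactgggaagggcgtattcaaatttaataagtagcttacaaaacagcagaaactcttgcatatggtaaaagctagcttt
Tlr11: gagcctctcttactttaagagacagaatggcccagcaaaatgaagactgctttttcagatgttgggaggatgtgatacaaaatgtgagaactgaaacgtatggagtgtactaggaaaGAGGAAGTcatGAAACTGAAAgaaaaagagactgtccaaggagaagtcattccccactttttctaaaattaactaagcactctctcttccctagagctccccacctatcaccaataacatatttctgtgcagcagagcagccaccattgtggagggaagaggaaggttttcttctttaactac
Mboat2: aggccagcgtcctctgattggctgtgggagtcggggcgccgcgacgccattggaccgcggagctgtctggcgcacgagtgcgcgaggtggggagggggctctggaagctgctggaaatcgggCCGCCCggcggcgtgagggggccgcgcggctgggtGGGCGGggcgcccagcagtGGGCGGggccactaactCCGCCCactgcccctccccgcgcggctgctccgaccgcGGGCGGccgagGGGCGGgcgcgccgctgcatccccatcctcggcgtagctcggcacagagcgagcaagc
The letters searched were TGANTCA for AP-1, GAGGAAGT for PU.1, TTGCNNAA for C/EBP, CACGTG for the E-box and GGGCGG for the GC box, along with the longer motifs of the IRF and NRF1 factors, and no 2 matches overlap in these windows. The Gsta3 window holds 1 C/EBP match and has 41.0% G and C. The Tlr11 window holds a PU.1 match followed by an IRF match, with 42.0% G and C. The Mboat2 window holds 6 GC boxes and has 76.3% G and C. Over the 21 windows the GC box was found in 10 (47.6%), the E-box in 4 (19.05%), C/EBP in 3 (14.3%), PU.1 in 1 (4.76%), IRF in 1 (4.76%), and AP-1 and NRF1 in 0. Over all 31365 windows the shares were 36.0%, 7.14%, 10.9%, 3.25%, 3.45%, 7.85% and 0.963% in the same order, and over the 9690 windows open in all 8 ApoE-null libraries the GC box was in 68.0% and the E-box in 10.8%. Some of the 21 windows overlap, those of Mboat2 with 2900060N12Rik and of Chst8 with Gm38987, so some GC boxes were counted more than once. The region at Rab20 and E230013L22Rik holds separate windows that each have an E-box. A match is a run of letters and not a measured binding site. No genome sequence was used here, so the regions outside promoters are given by position only.

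The KO-only regions lay mostly away from gene boundaries, inside long genes or between genes. The centre of 22 (7.94%, 95% Wilson interval 5.30 to 11.7%, counting error only) lay within 1 kb of either boundary of a protein-coding gene. Another 145 (52.4%) lay deeper inside a gene, 73 (26.4%) lay outside but within 50 kb of one, and 37 (13.4%) lay farther than 50 kb from any. Of the 17495 regions called in all 8 libraries of the cohort, 41.8% lay at a boundary, 32.6% deeper inside a gene, 18.5% within 50 kb and 7.15% farther away. Over all 56646 regions the boundary share was 19.7%. The annotation gives gene spans without exons, so introns and exons are not separated.

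**Figure D1:**
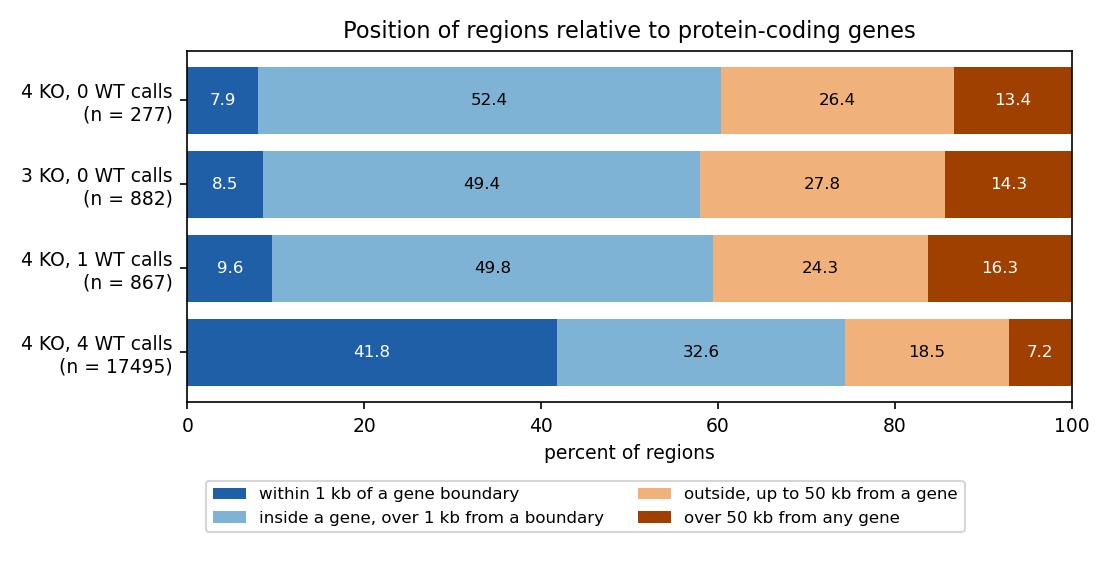
Share of regions (percent, horizontal axis) in 4 position classes relative to protein-coding genes, for regions with 4 KO and 0 WT, 3 KO and 0 WT, 4 KO and 1 WT, and 4 KO and 4 WT calls in the ApoE-null cohort. The boundary class takes 7.94% of KO-only regions, 8.50% and 9.57% of the neighbouring classes and 41.8% of regions called in all 8 libraries.

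Regions just outside the rule were placed much like the KO-only ones. Of the 882 regions called in 3 KO and 0 WT libraries 8.50% lay at a gene boundary, and of the 867 called in 4 KO and 1 WT libraries 9.57%. The host genes were long: KO-only regions inside genes had a median host of 115 kb, against 102 kb for regions with 3 KO and 0 WT calls, 93.55 kb for those with 4 KO and 1 WT calls, 45.6 kb for regions called in all 8 libraries and 67.2 kb for all regions. The median distance to the nearest gene boundary was 21.0 kb for KO-only regions, 20.3 and 22.1 kb for the neighbouring classes, 3.42 kb for regions called in all 8 and 11.8 kb for all regions. The median merged length was 656 bp, with a range of 270 to 2321 bp, against 628 bp for 3 KO and 0 WT calls, 762 bp for 4 KO and 1 WT calls, 1276 bp for regions called in all 8 libraries and 766 bp for all regions. They were spread over all 19 autosomes, from 2.72 per 1000 called regions on chromosome 17 to 7.59 on chromosome 14. Only 18 of the 277 lay within 50 kb of another, and the closest pair of centres was 10750 bp apart. The median distance to the nearest ApoE-null WT peak was 8.67 kb. It was at most 500 bp for 9 regions and over 50 kb for 33.

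Just outside the rule, the missed or added call came most often from 1 library. The 277 regions had a median fold enrichment of 3.51 and 2.85 in the untreated KO libraries, replicates 1 and 2, and of 3.23 and 2.93 in the oxLDL KO libraries. Fold enrichment here is the authors' value for the strongest peak of the region over the caller's background. The 882 regions with 3 KO and 0 WT calls had medians of 3.27, 2.75, 3.09 and 2.70 in these libraries where called, and 425 of them were missed by replicate 2 of untreated KO, the shortest KO list. The 867 regions with 4 KO and 1 WT calls had medians of 3.90, 2.94, 3.34 and 3.01, and in 610 of them the WT call came from replicate 2 of untreated WT, the longest WT list. The exchanged counts were 40 regions with 3 WT and 0 KO calls and 26 with 4 WT and 1 KO calls.

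**Figure D2:**
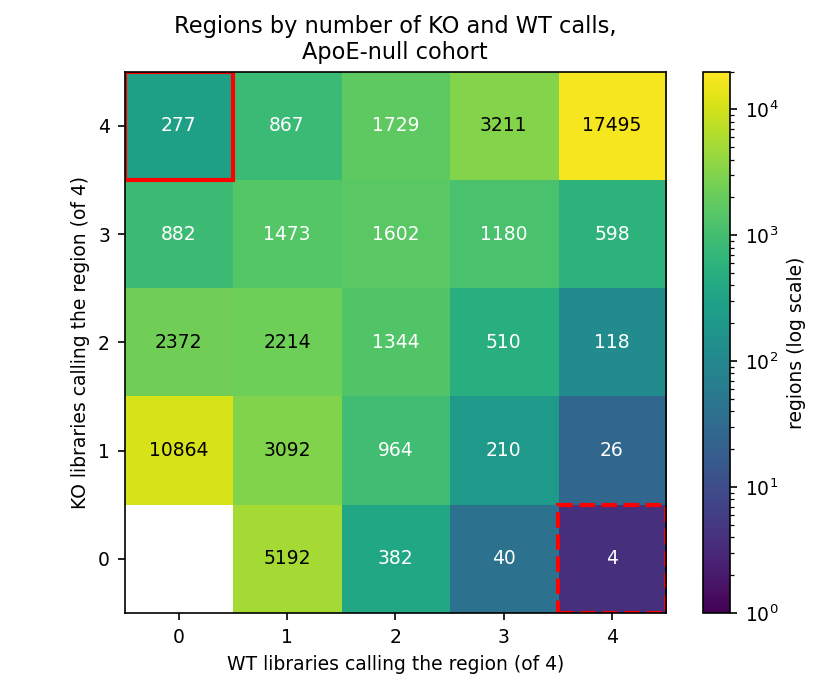
Number of regions (colour, log scale, and printed) by how many of the 4 KO libraries (vertical axis) and of the 4 WT libraries (horizontal axis) of the ApoE-null cohort called them. The solid box marks the 277 KO-only regions and the dashed box the 4 regions with exchanged labels. Of the regions 1 call short of the rule, 882 had 3 KO and 0 WT calls, against 40 with 3 WT and 0 KO calls.

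The KO-only regions were weak peaks, as were the regions just outside the rule. Peaks of each KO library were ranked by fold enrichment within their own list, where a percentile of 50 is the middle of the list. The median KO-only region stood at percentile 34.3 and 26.96 in the untreated KO libraries and at 36.5 and 34.4 in the oxLDL KO libraries. Regions called in all 8 libraries had medians of 79.8, 72.7, 73.9 and 73.1 in the same lists. Regions with 3 KO and 0 WT calls had 28.4, 22.7, 29.9 and 25.9 where called. Those with 4 KO and 1 WT calls had 44.0, 31.0, 39.6 and 37.3. Between 29 and 69 of the 277 KO-only regions lay in the upper part of a list, above percentile 50. At most 1 of the 277 lay above percentile 90 in any of the 4. The single-library minimum fold of the KO-only regions was between 1.91 and 1.96, and the largest fold of any was 7.93. Across the 277 regions the fold enrichments of 2 KO libraries had Spearman correlations of 0.375 to 0.485 over the 6 pairs, a description across regions that share libraries and the rule. The caller's -log10 q had medians of 6.45 and 4.51 in untreated KO and 5.80 and 6.36 in oxLDL KO libraries, above a floor of 1.30 to 1.34 in these 4 lists.

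**Figure D3:**
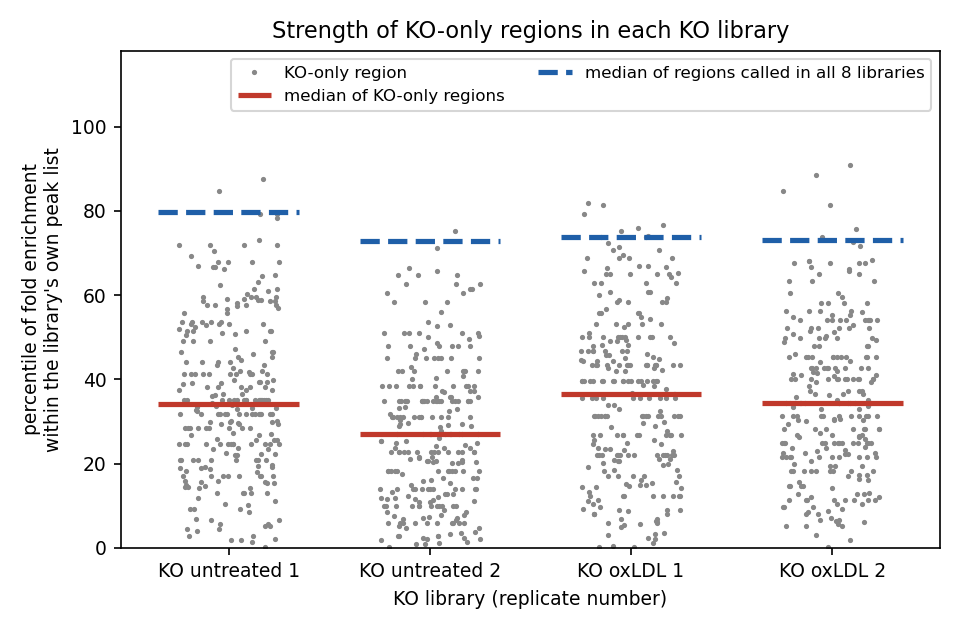
Percentile of fold enrichment within each KO library's own list (vertical axis) for every KO-only region (grey points), by KO library (horizontal axis). Solid lines are medians of the 277 KO-only regions, 26.96 to 36.5, and dashed lines medians of regions called in all 8 libraries, 72.7 to 79.8.

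The 10 strongest KO-only regions, by mean percentile over the 4 KO lists, lay at or near genes of different function. A region inside Tmem14a, which encodes a small membrane protein (chromosome 1, 21229264 to 21229874), had fold enrichments of 6.67 and 4.81 in untreated KO and 4.95 and 4.43 in oxLDL KO libraries. It stood between percentiles 71.6 and 79.3 in all 4 lists. The region at the Gsta3 promoter printed above (chromosome 1, 21239921 to 21240718) is its neighbour and had 4.71 and 3.96 in untreated KO and 5.10 and 5.59 in oxLDL KO libraries. Glutathione S-transferases couple glutathione to oxidised lipids and other reactive compounds. A region 46066 bp from Tent5a, a gene for a poly(A) polymerase (chromosome 9, 85274082 to 85274664), had 7.43 and 3.83 in untreated KO and 4.38 and 5.22 in oxLDL KO libraries. A region inside Micu3, which regulates calcium uptake into mitochondria (chromosome 8, 40388037 to 40388880), had 4.41 and 3.24 in untreated KO and 4.95 and 6.09 in oxLDL KO libraries. Its 2 oxLDL values were above its 2 untreated ones, but fold enrichments belong to their own lists and were not compared as levels.

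Others among the 10 strongest lay inside or near genes of varied function. A region inside Lnpep, the insulin-regulated aminopeptidase gene (chromosome 17, 17599998 to 17601265), had the highest single value, 7.93, in replicate 1 of untreated KO, and 4.12, 4.26 and 2.93 in the other 3 KO libraries. A region inside Tbc1d5, a regulator of retromer traffic from endosomes (chromosome 17, 50876501 to 50876861), had 5.32 and 3.43 in untreated KO and 4.61 and 4.19 in oxLDL KO libraries. A region inside Pter (chromosome 2, 12983069 to 12983668) had 5.79 and 4.02 in untreated KO and 3.34 and 4.19 in oxLDL KO libraries. One 21075 bp from Rrm2, a subunit gene of ribonucleotide reductase (chromosome 12, 24734903 to 24735540), had 4.89 and 3.96 in untreated KO and 4.47 and 4.22 in oxLDL KO libraries.

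The 10 strongest regions at gene boundaries included promoters and gene ends. Besides those of Tmem14a, Gsta3, Micu3, Tlr11 and Mboat2, the rule named a region 927 bp from Mcoln3, the endolysosomal channel TRPML3 (chromosome 3, 146142530 to 146142940), with 5.35 and 2.75 in untreated KO and 4.41 and 2.85 in oxLDL KO libraries. In both treatments replicate 1 was the higher. The region at the edge of Tiam1, an activator of the small GTPase Rac (chromosome 16, 90145165 to 90145767), had 3.32 and 2.89 in untreated KO and 4.38 and 3.60 in oxLDL KO libraries. The Tlr11 region (chromosome 14, 50357429 to 50358277) had 3.65 and 3.04 in untreated KO and 2.99 and 3.09 in oxLDL KO libraries and lay 294488 bp from the nearest ApoE-null WT peak. The Mboat2 region (chromosome 12, 24830771 to 24832216) had 3.40 and 2.65 in untreated KO and 3.57 and 3.17 in oxLDL KO libraries. Regions at Cmpk1, a nucleotide kinase gene, Olfr433, an olfactory receptor gene, and 4930519L02Rik completed the 10, with folds of 2.61 to 4.66 in the 4 KO libraries.

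The longest regions were not the strongest. A region inside Tle5, a corepressor gene of the Groucho family (chromosome 10, 81559105 to 81561425), was 2321 bp long as merged over all 12 lists and had folds of 2.65 and 2.27 in untreated KO and 2.39 and 2.61 in oxLDL KO libraries. A region 6850 bp from Pygl, the liver glycogen phosphorylase gene (chromosome 12, 70233568 to 70235498), had 4.73 and 3.36 in untreated KO and 2.46 and 3.22 in oxLDL KO libraries. The other 3 of the 5 longest lay near Slc24a3, an ion exchanger gene, near Lrrfip2, and inside Mrps35, a mitochondrial ribosomal protein gene, with 1536 to 1692 bp.

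Few genes of the study's pathways had a KO-only region. Over all 20665 autosomal protein-coding genes, 160 (0.774%) had the centre of one inside the gene or within 1 kb, and 435 (2.11%) had one within 50 kb. None was found within 50 kb of any of 24 macrophage identity, 24 SWI/SNF, 22 cholesterol efflux and LXR, 13 modified LDL uptake, 36 NF-kB, 14 antioxidant, or 18 mitochondrial biogenesis genes. None lay within 50 kb of any of the 49 listed marker genes of other blood lineages. These lists are short, and genes outside them such as Ly75, Gzma, Gzmk, Eomes and Lef1 had one within 50 kb. At a share of 2.11% over all genes, a list of this size can hold none, and the lists were not tested. Of 27 interferon genes, Sp110 and Sp140 held 1 region in common, with Sp100 within 50 kb of it. Of 48 axon guidance and neural adhesion genes, Efna5 held 1.

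The region at Sp110 and Sp140, nuclear body genes induced by interferon (chromosome 1, 85604251 to 85604520), had folds of 4.29 and 4.18 in untreated KO and 5.67 and 4.12 in oxLDL KO libraries. It is the shortest of the 277, with 270 bp, and lay 316 bp from an ApoE-null WT peak. In the Omni-ATAC cohort it was called in untreated KO alone of the 4 libraries, with a score of 37 at percentile 1.3 of that list. Related copies of these genes lie at this locus and can share reads, and whether this affects the calls was not tested. The Efna5 region, inside the gene of the guidance ligand ephrin A5 (chromosome 17, 62623058 to 62623601), had 4.27 and 3.04 in untreated KO and 5.41 and 6.49 in oxLDL KO libraries. Its value in replicate 2 of oxLDL KO stood at percentile 90.8, the highest rank of any KO-only region in any list.

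Several genes held more than 1 region, and a few with a single region are described with them. These were chosen after their values were seen. Elmo1, an adaptor for the engulfment of dying cells, and Celf2, an RNA-binding protein gene, held 3 regions each, and both genes are long, 517847 and 856648 bp. The Elmo1 regions (chromosome 13, 20211780 to 20212418, 20398363 to 20398933 and 20562145 to 20562743) had folds of 3.04 to 4.40 in untreated KO and 3.17 to 4.76 in oxLDL KO libraries. Kif16b, Adgrl4, Aopep and Mbnl2 were among the genes that held 2 each. A region inside Cd86, a costimulatory ligand gene (chromosome 16, 36645042 to 36646106), had 3.97 and 2.78 in untreated KO and 2.81 and 3.60 in oxLDL KO libraries. One inside Ly75, the gene of the endocytic receptor DEC-205 (chromosome 2, 60369442 to 60369990), had 3.78 and 2.98 in untreated KO and 3.89 and 3.47 in oxLDL KO libraries. One inside Rarb, a retinoic acid receptor gene (chromosome 14, 16526150 to 16526509), had 5.04 and 3.53 in untreated KO and 3.57 and 3.40 in oxLDL KO libraries.

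The exchanged labels gave 4 regions, all outside gene boundaries. They lay 5540 bp from Blmh (chromosome 11, 76992461 to 76993397), 9623 bp from Wfikkn2 (chromosome 11, 94225812 to 94226845), inside Med15, a Mediator subunit gene (chromosome 16, 17704228 to 17704836), and 34933 bp from Gckr, the glucokinase regulator gene (chromosome 5, 31361799 to 31362672). Their folds in the 4 WT libraries ran from 2.40 to 4.34, and their mean percentiles from 17.6 to 38.4. All 4 were called in both KO and both WT Omni-ATAC libraries.

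The KO-only rule was also applied to each treatment alone. It then asks for fewer calls, so at least as many regions must meet it. Without oxLDL, 1786 regions (3.51% of those called in untreated ApoE-null libraries) had calls in both KO libraries and in neither WT library. With oxLDL, 3395 (8.11% of those called in oxLDL ApoE-null libraries) did. The exchanged counts were 336 without and 165 with oxLDL. The 277 KO-only regions are those in both sets, 15.5% of the untreated and 8.16% of the oxLDL set. The exchanged overlap of 4 is 1.19% and 2.42% of its sets. List lengths differed between the treatments as well. The oxLDL WT lists held 27571 and 24397 peaks, against 35589 and 33934 in oxLDL KO. The untreated WT lists held 29064 and 39303 peaks, against 44524 and 33267 in untreated KO. Whether genotype separated more regions in either treatment was not tested.

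Calls in the Omni-ATAC libraries were not used to choose the KO-only regions, though their peaks helped set the merged edges. There the regions were open in both genotypes: 277 (100%) were called in untreated KO and 273 (98.6%) in oxLDL KO, against 273 (98.6%) in untreated WT and 267 (96.4%) in oxLDL WT. Over the 56646 regions of the ApoE-null cohort these shares were 90.2% and 86.4% in KO and 88.1% and 83.8% in WT. All 4 libraries called 266 (96.0%) of the KO-only regions and 82.5% of all regions. They called 90.4% of regions with 3 KO and 0 WT calls and 97.5% of those with 4 KO and 1 WT calls. Of regions called in all 8 ApoE-null libraries they called 99.1%. The KO minus WT difference in the members' share averaged 1.81 points over the treatments, against 2.26 points over all regions (for the members, exact permutation test exchanging genotype within treatment, two-sided, p = 0.5, the smallest that 4 arrangements allow). With 1 library a group no smaller p can be had.

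Of the 277 regions, 2 (0.722%) were called in both Omni-ATAC KO and in neither WT library, against 264 (0.466%) of all regions, and 0 the other way round, against 12 (0.0212%). One lay 412741 bp from Cntn3, a neural adhesion gene (chromosome 6, 102977103 to 102977608), with folds of 3.52 and 2.55 in untreated KO and 3.11 and 4.19 in oxLDL KO libraries of the ApoE-null cohort. The other lay in the body of Thrb, which encodes a nuclear receptor for thyroid hormone (chromosome 14, 17863940 to 17864346), with 2.52 and 2.26 in untreated KO and 3.22 and 2.69 in oxLDL KO libraries. The Cntn3 region stood at percentiles 35.2 and 14.0 in the untreated KO lists and 31.2 and 67.7 in the oxLDL KO lists, and the Thrb region at 5.7 and 2.9 in untreated KO and 35.5 and 24.9 in oxLDL KO. Of the 9 other regions missed by at least 1 Omni-ATAC library, each was called in untreated KO, the longest list. In Omni-ATAC lists of equal length, 1 of the 277 was called in both KO and neither WT library, and 1 the other way round.

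Ranks in the Omni-ATAC cohort leaned to KO at these regions, and about as far at regions with 4 KO and 1 WT calls. This comparison of ranks was added after the data were seen. In lists cut to the 80394 highest-scoring peaks each, 258 KO-only regions were called in both untreated libraries and 264 in both oxLDL libraries. Of these, 168 (65.1%) had the higher score percentile in untreated KO and 157 (59.5%) in oxLDL KO, against 43.9% and 47.4% of all ApoE-null regions called in both. Median score percentiles were 56.6 in untreated KO against 51.2 in untreated WT, and 59.0 in oxLDL KO and 58.0 in oxLDL WT. The median difference within a region was 4.15 percentile points without and 2.43 with oxLDL, against -1.003 and -0.27 over all regions. Regions with 4 KO and 1 WT calls had 65.2% and 57.8% higher in KO, so the lean was not particular to regions without a WT call. Regions with 3 KO and 0 WT calls had 69.3% and 59.6%, and those with 2 KO and 0 WT calls 59.3% and 56.2%. Those with 1 KO and 0 WT calls had 55.2% and 52.2%, and those with 0 KO and 3 WT calls 18.2% and 28.1%. The difference between the medians of the 2 genotypes averaged 3.19 points (exact permutation, two-sided, p = 0.5, the smallest possible). In the full lists the shares were 91.9% and 83.5% of KO-only regions, against 75.3% and 71.0% of all regions, with the KO list the longer one of each pair.

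**Figure D4:**
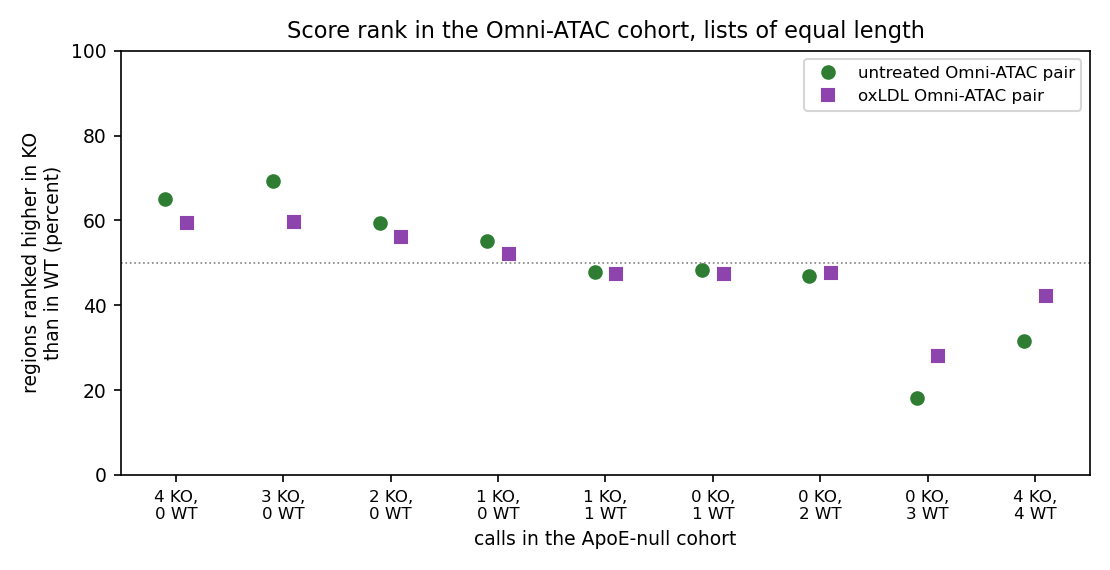
Percent of regions with a higher score percentile in KO than in WT (vertical axis) for the untreated (circles) and oxLDL (squares) pair of Omni-ATAC libraries, in lists of equal length, by the calls a region had in the ApoE-null cohort (horizontal axis). Each point compares 1 KO with 1 WT library. The 277 KO-only regions are at 65.1% and 59.5% and regions called in all 8 libraries at 31.7% and 42.1%.

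Among the strongest KO-only regions this rank was higher in KO for some and not for others: of the 9 among the 10 strongest that were ranked in both pairs, 3 were higher in KO in both, 1 was lower in both, and 5 were higher in 1 pair and lower in the other. The Micu3 region stood at percentile 89.1 in untreated KO against 70.0 in untreated WT, and at 92.0 in oxLDL KO and 83.4 in oxLDL WT. The Efna5 region stood at 34.3 in untreated KO against 7.8 in untreated WT, and at 58.1 in oxLDL KO and 40.7 in oxLDL WT. The Gsta3 region stood at 41.3 in untreated KO against 17.5 in untreated WT, and at 84.4 in oxLDL KO and 72.5 in oxLDL WT. These 3 were higher in KO in both pairs. The Lnpep region stood at 52.1 in untreated KO against 66.5 in untreated WT, and at 69.7 in oxLDL KO and 73.5 in oxLDL WT, lower in KO in both. Of the 5 mixed regions, at Tmem14a, Tent5a, Rrm2, Tbc1d5 and Pter, the Tmem14a region was higher in untreated KO, at 60.5 against 44.5 in untreated WT, and lower in oxLDL KO, at 54.3 against 69.4 in oxLDL WT.

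How many regions were KO-only, and which, changed with the processing. In ApoE-null lists cut to the 24397 highest-scoring peaks each, which moves both the length and the score threshold, 116 regions were KO-only and 49 exchanged. Of the 277 KO-only regions, 38 (13.7%) remained KO-only there, and 49 were called in none of the 8 cut lists. No cut WT list called any of the 277, as the cut only removes peaks. At a -log10 q of at least 5, 70 (25.3%) remained KO-only, and 5 (1.81%) did when peaks had to cover at least 50% of the merged region. Merging the 8 ApoE-null lists alone kept 270 (97.5%) of the 277, and 268 had no ApoE-null WT peak within 500 bp. Leaving out replicate 2 of untreated WT raised the count to 887, and leaving out replicate 2 of untreated KO raised it to 702. Without replicate 1 of oxLDL KO it was 474, and without replicate 2 of oxLDL KO 479. Among the settings that leave out 1 library the exchanged count was highest, 23, without replicate 1 of untreated KO and without replicate 2 of oxLDL WT. The mark L001 stands in the file names of both untreated WT libraries and of replicate 1 of oxLDL KO, so in the untreated groups mark and genotype cannot be told apart. Without these 3 libraries, which leaves no untreated WT library, 2383 regions were KO-only and 36 exchanged. Fewer libraries also make the rule easier to meet, and under each of these settings the KO-only count stayed above its exchanged counterpart.

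**Figure D5:**
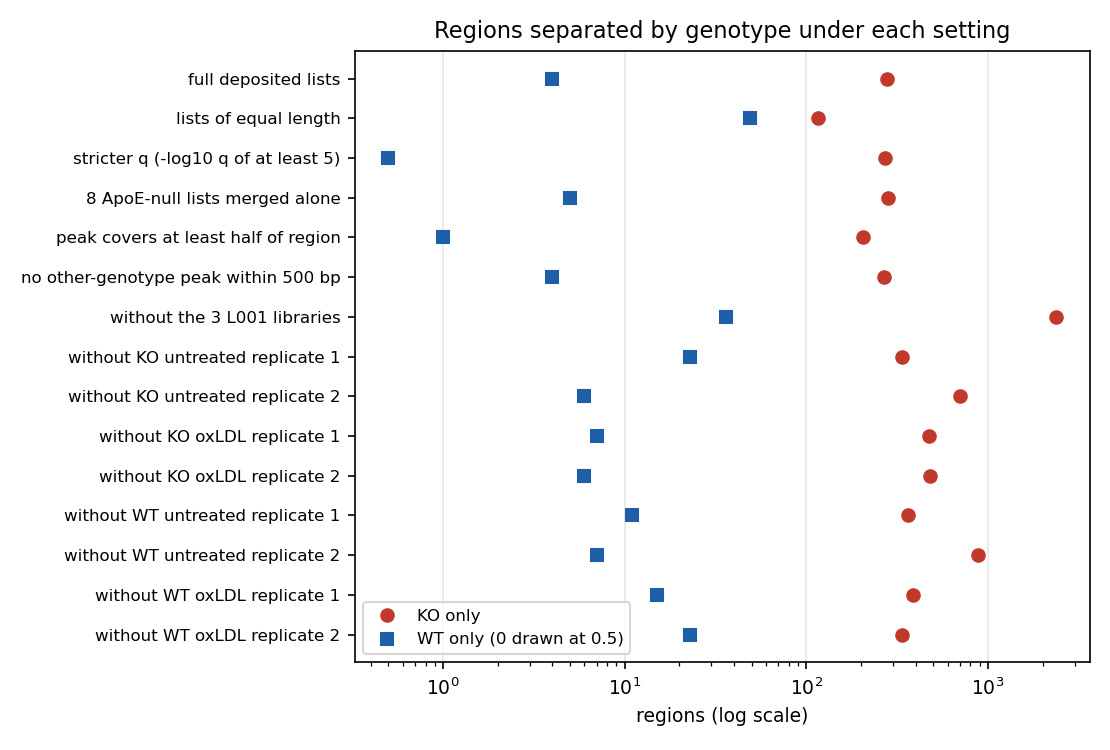
Number of regions called in all KO and no WT libraries (circles) and in all WT and no KO libraries (squares) of the ApoE-null cohort, on a log scale, under each processing setting (rows), with a count of 0 drawn at 0.5. Circles lie right of squares in each row, with 277 against 4 in the full lists and the narrowest gap, 116 against 49, in lists of equal length.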

How the data were processed

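Each library has 1 deposited peak list on mm10, so peaks were called per sample. The submitters' processing notes name MACS2 (ApoE-null) or MACS3 (Omni-ATAC), Bowtie2 2.3.4.1, SAMtools 1.2, Picard and bedtools 2.28.0. For parameters, transposase shift and duplicate removal, nothing is given in the sources used here. Values as deposited are a caller score in all lists and, in the ApoE-null lists, a fold enrichment (a ratio) and the -log10 p and -log10 q of each peak, all made by the authors. Ranks were taken within a list. Fold values of different lists are also printed side by side, though the lists differ in scale. The median fold of a whole KO list ran from 3.40 to 4.195.

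Autosomal peaks were merged by Python 3.11.15 scripts (numpy 2.4.6, pandas 2.3.3, scipy 1.17.1, matplotlib 3.10.9), tested on simulated lists. Gene spans came from RefSeq GRCm38.p6. Equal-length lists hold the peaks with the highest score. Of 275 listed genes 270 matched an autosomal gene. Regions named were the 10 with the highest mean fold percentile over the 4 KO lists, those with Omni-ATAC calls in both KO and 0 WT libraries, the 10 strongest at gene boundaries, those at listed genes, the 5 longest and the exchanged set. Regions and gene lists were chosen with earlier results of these data known. Alternatives were other lengths, thresholds, overlaps and left-out libraries.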

Additional observations from a re-analysis of the deposited data

How the results depend on the processing

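The count of KO-only regions exceeded the exchanged count in each setting tried within the ApoE-null cohort. In lists of equal length it was 116 against 49 exchanged. At a -log10 q of at least 5 it was 270 against 0, and 70 of the 277 remained KO-only. When peaks had to cover at least 50% of the merged region it was 204 against 1, with 5 of the 277 remaining. Dropping the 3 libraries marked L001, which leaves no untreated WT library, gave 2383 against 36. Requiring in addition 0 of 2 Omni-ATAC libraries of the other genotype, a choice made after seeing the data, left 4 KO-only and 0 WT-only regions. Leaving out 1 library gave 335 to 887 KO-only and 6 to 23 WT-only regions. Leaving out libraries makes the rule easier to meet for either genotype, and only the equal-length setting evened out the list lengths. In Omni-ATAC lists of equal length, 1 KO-only region was called in both KO and 0 WT libraries, and 1 the other way round. The share at gene boundaries was 6.03% to 9.75% over its alternatives, and the Omni-ATAC KO minus WT share was 0.431 to 5.596 points, in lists that call nearly all members. No paired analysis was possible because the ApoE-null replicates entered no test, only the calls that chose the regions. The Omni-ATAC test exchanged genotype within each treatment. Depth is unknown, and 1 library a group limits the Omni-ATAC comparison.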
